A study of Mus musculus with 16 samples.

Results

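Potassium channels let potassium ions leave or enter the cell, and in neurons they set the resting potential, end the action potential and limit repeated firing. Voltage-gated (Kv) pore subunits assemble with auxiliary subunits and electrically silent subunits, whereas inward rectifiers, two-pore-domain leak channels and calcium- or sodium-activated channels hold the resting potential or follow the cell's activity. Every gene whose symbol starts with Kcn was taken from the deposited count table, and opposite-strand transcripts (4 names), the noncoding RNA Kcnq1ot1 and the cytosolic regulator Kcnrg were left out of the 99 names. Of the 93 subunit genes that remained, 80 had at least 10 read pairs in at least 4 of 16 libraries and formed the set, out of 47593 genes in the table. The 13 genes that did not reach that count were Kcnk15, Kcnmb3, Kcna10, Kcna7, Kcne3, Kcnk16, Kcnj1, Kcne1, Kcnj15, Kcnh8, Kcnk7, Kcnv2 and Kcnk18. At the edge of the rule, Kcnn4 reached 10 read pairs in 4 libraries with a highest count of 13, and Kcne3 and Kcnh8 reached it in 2 libraries with a highest count of 11. The expression filter of the tests kept 79 of the 80 genes and left out Kcnn4.

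The libraries were made from cortex of 5xFAD mice, an amyloid model in which neurons carry mutant human transgenes, APP among them, under the Thy1 promoter. The 4 groups were female vehicle (FC), female rapamycin (FR), male vehicle (MC) and male rapamycin (MR), with 4 libraries each, and every group carried the transgenes. Rapamycin, an inhibitor of the kinase mTOR, or the carrier alone was given in chow from 2 months of age, and tissue was taken at 5 months. The sources used here do not state plainly that each library came from 1 mouse, so p-values describe the spread between libraries.

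Library totals ran from 16393501 to 20593089 counted read pairs. Batch, as labelled, was 1 for 11 libraries and 2 for the other 5 (FC4, FR4, FR5, MC4 and MR4). The library labelled MR4 held 512 CPM (read pairs scaled to library size, per 1e6 counted) of Xist and 0 read pairs of Y-linked genes, whereas the other male libraries held 1915 to 2231, so the library labelled MR4 went against its sex label. MC4 stood apart in the summed level of 7 choroid plexus markers, at 1960 CPM against at most 325 CPM elsewhere. The share of mitochondrial read pairs was 2.64% to 5.47% on vehicle and 3.75% to 6.99% on rapamycin. Glutamatergic neuron markers, which define the excitatory cells of cortex, summed to a median of 5124 CPM on vehicle (4490 to 6159) and 5066 CPM on rapamycin (4088 to 5710), and 1 of the 7 fell. GABAergic markers summed to medians of 918 and 920.4 CPM, and the smallest edgeR adjusted p of the 7 was 0.0675.

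The start regions of 3 genes are shown first, those of Kcnj6 and Kcnh5 because they were among the 3 genes with the smallest adjusted p, and that of Kcnj13 because it is best known from choroid plexus epithelium and not from neurons. Each line gives the 250 bases before the RefSeq start on build GRCm38.p6, on the minus strand, at chr16:94997697-94997946, chr12:75177333-75177582 and chr1:87394730-87394979 in that order, with every CG dinucleotide in capitals.
Kcnj6: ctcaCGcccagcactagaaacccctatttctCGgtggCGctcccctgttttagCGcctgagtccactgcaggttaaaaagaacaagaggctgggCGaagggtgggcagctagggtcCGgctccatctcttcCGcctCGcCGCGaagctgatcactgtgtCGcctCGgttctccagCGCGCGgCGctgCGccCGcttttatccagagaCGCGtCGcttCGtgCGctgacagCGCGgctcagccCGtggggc
Kcnh5: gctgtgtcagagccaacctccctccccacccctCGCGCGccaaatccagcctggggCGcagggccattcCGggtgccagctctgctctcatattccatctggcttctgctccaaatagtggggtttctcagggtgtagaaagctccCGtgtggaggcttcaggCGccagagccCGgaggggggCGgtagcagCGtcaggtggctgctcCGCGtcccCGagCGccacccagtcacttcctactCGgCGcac
Kcnj13: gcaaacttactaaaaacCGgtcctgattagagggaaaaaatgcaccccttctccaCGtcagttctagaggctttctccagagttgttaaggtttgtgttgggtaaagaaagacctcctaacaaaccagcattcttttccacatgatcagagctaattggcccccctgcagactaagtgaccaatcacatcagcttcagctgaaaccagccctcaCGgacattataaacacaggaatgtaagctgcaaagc
These windows held 26, 16 and 3 CG dinucleotides, and the median over all 32851 start regions of the RefSeq table was 6, with 92.1% holding at least 1. Of the 80 genes, 57 matched a start region by symbol or synonym on the same chromosome and strand, with a median of 9 CG. Among the 8 matched genes that fell by at least 1.5-fold on rapamycin, 7 held more CG than the median of all regions, and Kcnj13 held fewer. The E-box CACGTG, which reads the same on both strands, was found in 5 of the 57 windows (8.77%) and in 6.02% of all windows, and in 0 of the 12 matched genes that fell. The cyclic AMP response element TGACGTCA, also the same on both strands, was in 0 of the 57 windows and in 1.55% of all. These counts describe letters in the window and no binding was measured.

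Between genes, levels were compared per exon length, as RPKM, which is CPM divided by summed exon kilobases. The highest mean was that of Kcnab2, the cytosolic beta subunit of Kv1 channels, at 102 ± 9.98 RPKM (SD, n = 16). Kcnj4, an inward rectifier of forebrain neurons, followed at 66.2 ± 11.5 RPKM, and Kcnh3, a Kv12 pore subunit, at 46.1 ± 10.9 RPKM. The next in order, Kcnip3, Kcnj9 and Kcnk1, lay at 43.9 ± 11.5, 42.97 ± 6.35 and 41.5 ± 7.57 RPKM, so that these neighbours differed by less than 1 SD. In all, 35 genes reached 10 RPKM, 35 lay between 1 and 10, 9 between 0.1 and 1, and Kcnn4 was under 0.1. Kcnj10, the inward rectifier of astrocytes, stood in ninth place with 34.3 ± 10.5 RPKM.

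Rapamycin-fed mice had lower counts for a subset of potassium channel pore subunits, and no subunit gene rose past the threshold. In both sexes together, 11 of 79 genes fell with an adjusted p under 0.05 and at least 1.5-fold (Kcnj13, Kcnh1, Kcnh7, Kcna3, Kcna1, Kcnma1, Kcnh5, Kcns2, Kcnk9, Kcnj6 and Kcng3). Over all 16553 genes tested, 1.57% fell and 0.689% rose by the same rule (edgeR's quasi-likelihood test with sex and batch as terms, Benjamini-Hochberg adjustment over all genes). Without the size criterion 17 of 79 fell, against 6.86% of all genes, and Kcnh2, Kcnt2, Kcna2, Kcnq3 and Kcnc1 were among those that passed the adjusted p alone. Against 6.46% of all genes, 0 of 79 rose by edgeR, 1 gene that was higher had an unadjusted p under 0.05 (Kcnmb4), and DESeq2 also gave 0. In either direction 33 of 79 had an unadjusted p under 0.05 (edgeR), against 30.4% of all genes. Of the 79 genes, 63 had a log2 fold change below 0 (79.7%, against 47.7% of all genes), and the median was -0.20 against 0.02. In bulk tissue, fewer cells of a type and less RNA per cell cannot be told apart.

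**Figure D1:**
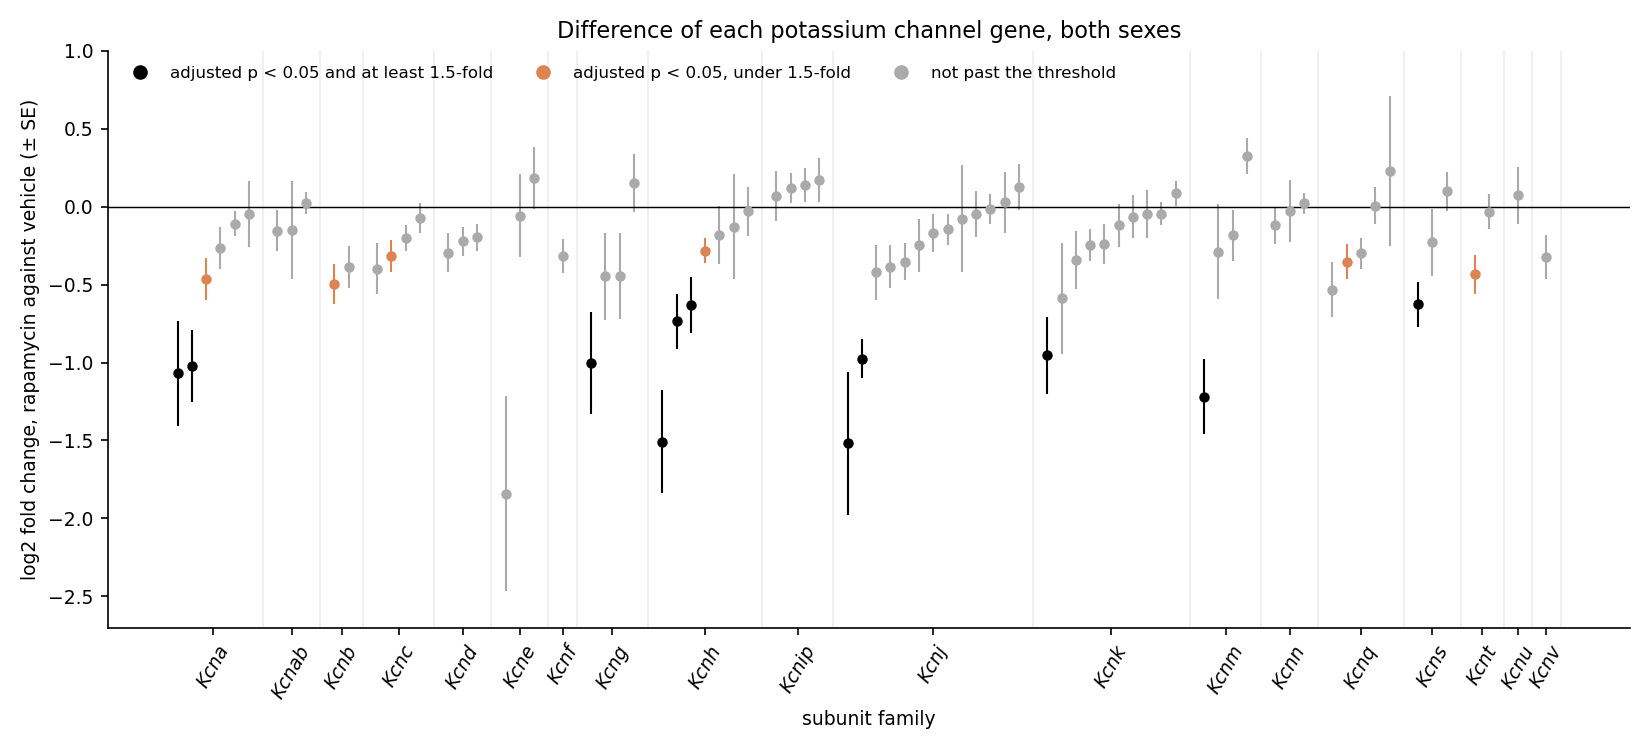
Log2 fold change on rapamycin against vehicle (y axis, log2 scale, bars ± SE) of each of the 79 tested genes, grouped by subunit family (x axis). Black points passed adjusted p under 0.05 and 1.5-fold, orange points passed the adjusted p alone, and grey points did neither. All 17 coloured points lie below 0, and the 4 Kcnip genes all lie above it in this fit, though not in every alternative.

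No potassium channel gene separated the treatments completely. For 0 of 79 genes were all 8 rapamycin libraries under all 8 vehicle libraries, against 0.362% of all genes. Of the 17 genes that fell, 4 had all 8 rapamycin libraries under the vehicle median (Kcnj6, Kcns2, Kcnh1 and Kcnt2), 8 had 7 and 5 had 6. All 17 were lower on rapamycin within batch 1 and within batch 2. They were chosen by a fit of these same libraries, so that agreement is no separate support. Batch 2 had 2 vehicle libraries, FC4 and MC4, and 15 of the 17 genes were highest in one of them. Of all 79 tested genes, 9 were highest in FC4 and 14 in MC4.

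Among the inward rectifiers, Kcnj6 (chr16:94749266-94997696, GRCm38, minus strand), the GIRK2 subunit that opens downstream of Gi-coupled receptors, had the smallest adjusted p. Its level ran from 15.3 through a median of 20.6 to 34.3 CPM in the 8 vehicle libraries and from 7.89 through 12.2 to 20.5 CPM in the 8 rapamycin libraries. The groups overlapped only through FR4, the highest rapamycin library, whose level exceeded those of MC1, MC3, FC1 and FC2. The log2 fold change was -0.98 ± 0.13 (SE), a 1.97-fold fall, with an edgeR adjusted p of 0.00333, and within batches the log2 difference was -0.92 and -1.14. Kcnj13, the Kir7.1 channel of choroid plexus epithelium, ran from 0.178 through 1.18 to 8.44 CPM on vehicle and from 0.237 through 0.584 to 1.60 CPM on rapamycin. Its highest value was in MC4, the library with the high choroid plexus markers, and the other 15 libraries lay at 2.05 CPM or less. The log2 fold change of -1.52 ± 0.46 (edgeR adjusted p = 0.0379) became -1.05 with an adjusted p of 0.177 without MC4. The choroid plexus list fell for 2 of its 7 markers (Aqp1 and Tmem72), and its sum ran from 13.6 to 1960 CPM on vehicle and 24.2 to 189 CPM on rapamycin, so Kcnj13 moved with that list, whose part in the result was not tested beyond leaving out MC4. Kcne2, an auxiliary subunit that is also abundant in choroid plexus, behaved alike in that MC4 held 10.5 CPM and no other library exceeded 1.90 CPM. Its log2 fold change was -1.84 ± 0.63 (edgeR adjusted p = 0.0591), and -0.86 with an adjusted p of 0.415 without MC4.

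Of the other 11 inward rectifiers 0 passed the threshold in edgeR, and DESeq2 gave an adjusted p under 0.05 for 2, Kcnj11 and Kcnj12. In edgeR 3 had an unadjusted p under 0.05 (Kcnj11, Kcnj12 and Kcnj2), against 30.4% of all genes. Kcnj11, the pore of the ATP-sensitive channel, averaged 28.4 ± 5.90 CPM on vehicle and 22.5 ± 5.14 CPM on rapamycin (SD, n = 8), with a log2 fold change of -0.35 and an edgeR adjusted p of 0.0554. Kcnj4, at the second highest level per length, averaged 145 ± 16.5 and 139.6 ± 31.8 CPM. Kcnj10 and Kcnj16, both of astrocytes, had log2 fold changes of -0.25 ± 0.17 and 0.12 ± 0.15, and Kcnj8, of pericytes and vessel muscle, -0.05 ± 0.15. Astrocyte markers rose for 2 of 7 (Aldoc and Gjb6), against 6.46% of all genes. Gfap and Aqp4 of the same list lay below 0 without passing (log2 -0.42 and -0.23). The sum of the 7 ran from 1810 to 2495 CPM on vehicle and from 1974 to 2860 CPM on rapamycin.

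**Figure D2:**
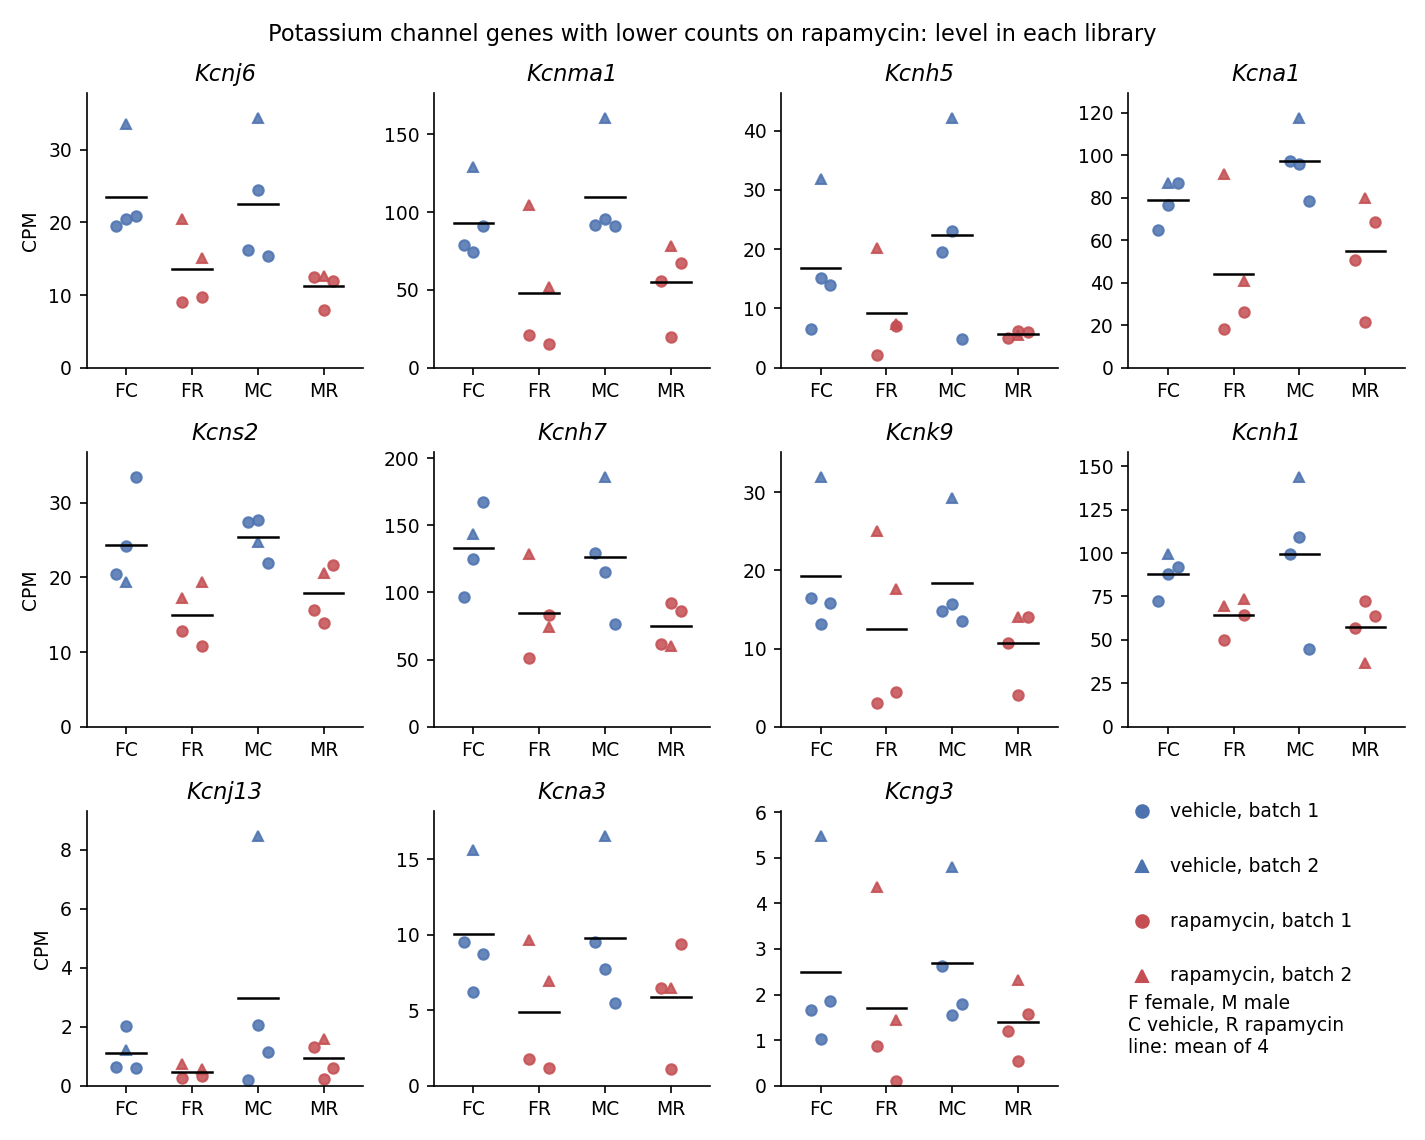
Level in CPM (y axes, linear from 0) of the 11 genes that fell by at least 1.5-fold, in each of 16 libraries by group (x axes). Blue is vehicle, red is rapamycin, circles are batch 1, triangles are batch 2 and the line is the mean of 4 libraries. FR4 is the highest FR library for 9 of the 11 genes shown, all but Kcns2 and Kcnh1, and MC4 alone stands out for Kcnj13.

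Kv pore subunits held most of the falls, with 10 of 27 past the adjusted p and a median log2 fold change of -0.30. Their median exon length was 5287 bases, beside 6895 for calcium- or sodium-activated pores and 3936 for inward rectifiers. It was 3806 for silent subunits, 3476 for auxiliary subunits and 2822.5 for two-pore-domain genes. With the trend of exon length removed, as described below, Kcna1 and Kcnh5 were the only Kv pore genes still past the adjusted p. In the Kcna (Kv1) family of axonal, low-threshold channels, 3 of 6 fell. Kcna1 (chr6:126640397-126646384), the Kv1.1 subunit of axons and their terminals, ran from 64.6 through a median of 86.9 to 117 CPM on vehicle and from 18.4 through 45.6 to 91.4 CPM on rapamycin. Its lowest libraries were FR1, MR2 and FR2 at 18.4, 21.5 and 26.0 CPM, and FR4, MR3 and MR4 lay within the vehicle range at 91.4, 68.5 and 79.7 CPM. The log2 fold change was -1.02 ± 0.23, a 2.03-fold fall (edgeR adjusted p = 0.0154). Kcna2, its usual partner at the axon, ran from 255 through 343 to 439.6 CPM on vehicle and from 171 through 250.5 to 377 CPM on rapamycin. That overlap was wide, and the fall was 1.38-fold (log2 -0.46 ± 0.13, edgeR adjusted p = 0.0328). Kcna3, which is also carried by microglia and T cells, ran from 5.48 through 9.11 to 16.5 CPM on vehicle and from 1.13 through 6.48 to 9.62 CPM on rapamycin. Its log2 fold change was -1.07 ± 0.34 (edgeR adjusted p = 0.0440), and the smallest edgeR adjusted p of the 6 microglia markers was 0.0649, with sums of 401 to 714 CPM on vehicle and 281 to 567 CPM on rapamycin. Kcna4, the fast-inactivating Kv1.4 subunit, averaged 22.5 ± 4.76 and 18.3 ± 3.05 CPM and did not pass (edgeR adjusted p = 0.191).

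In the Kcnh family, whose members slow repeated firing or shape the threshold, 4 of 7 fell. Kcnh5 (chr12:74897217-75177332), the Kv10.2 subunit, ran from 4.84 through a median of 17.3 to 42.1 CPM on vehicle and from 2.14 through 6.04 to 20.2 CPM on rapamycin. All rapamycin libraries but FR1 lay within the vehicle range. The 4 MR libraries were between 4.92 and 6.11 CPM, while MC3 was lowest on vehicle at 4.84 CPM and FR4 was highest on rapamycin. The log2 fold change of -1.51 ± 0.33 was a 2.84-fold fall (edgeR adjusted p = 0.0140). Kcnh7 (chr2:62693414-63184287), the Kv11.3 subunit, ran from 76.6 through 127 to 186 CPM on vehicle and from 50.9 through 79.1 to 128 CPM on rapamycin, a 1.67-fold fall (log2 -0.74 ± 0.18, edgeR adjusted p = 0.0176). Kcnh1, the Kv10.1 subunit, ran from 44.7 through 95.8 to 144 CPM on vehicle and from 36.7 through 64.0 to 73.7 CPM on rapamycin. Every rapamycin library of Kcnh1 was under the vehicle median, and 2 vehicle libraries, MC3 and FC1, lay among them. Its log2 fold change was -0.63 ± 0.18 (edgeR adjusted p = 0.0299). Kcnh2, the ERG channel, which was outside the rule for named genes and is given because it passed, fell 1.22-fold (log2 -0.28 ± 0.08, edgeR adjusted p = 0.0295). Kcnh3, the most abundant of the family per length, averaged 166 ± 37.7 and 165 ± 42.98 CPM, with a log2 fold change of -0.03 ± 0.16.

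Differences of other Kv pore genes were smaller. Kcnc1, the Kv3.1 channel of fast-firing neurons, averaged 260.4 ± 40.3 and 215 ± 45.5 CPM (log2 -0.32 ± 0.10, edgeR adjusted p = 0.0473). Kcnc4, the family's highest member per length, averaged 143 ± 20.3 and 138.5 ± 29.7 CPM (log2 -0.07 ± 0.10). Kcnq3, a subunit of the M-current that dampens firing, averaged 199 ± 47.8 and 157 ± 18.5 CPM (log2 -0.35 ± 0.11, edgeR adjusted p = 0.0449). The 3 Kcnd genes, which carry the A-type current of dendrites, were all below 0 (-0.30 to -0.20) with Kcnd3 at 0.16 once exon length slope was a covariate. By edgeR 0 of the 3 passed, and DESeq2 gave 0. All 3 had an unadjusted p under 0.05 in edgeR, as did 30.4% of all genes.

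Electrically silent subunits, which form channels only together with other Kv pores, fell for 2 of 9. Kcns2 (chr15:34837381-34842337) ran from 19.4 through a median of 24.5 to 33.4 CPM on vehicle and from 10.8 through 16.4 to 21.7 CPM on rapamycin. Every rapamycin library lay under the vehicle median. The fall was 1.54-fold (log2 -0.63 ± 0.14, edgeR adjusted p = 0.0158), with log2 differences of -0.83 in batch 1 and -0.17 in batch 2. Kcng3 was rare, at 1.02 to 5.47 CPM on vehicle and 0.109 to 4.37 CPM on rapamycin, and its adjusted p of 0.04999 (edgeR) was the one nearest the threshold. Kcnf1, the most abundant silent subunit, averaged 189 ± 16.2 and 151 ± 34.3 CPM (edgeR adjusted p = 0.0632), and Kcnv1 averaged 96.3 ± 17.9 and 75.4 ± 20.1 CPM (edgeR adjusted p = 0.131).

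Of the 7 tested calcium- or sodium-activated pore genes, 2 fell. Kcnma1 (chr14:23289431-24004859), the large-conductance BK channel that repolarises spikes and terminals after calcium entry, ran from 74.4 through a median of 91.4 to 160.2 CPM on vehicle and from 15.2 through 53.5 to 104.5 CPM on rapamycin. FR2, MR2 and FR1 were lowest at 15.2, 19.7 and 20.97 CPM, and MC4 was highest, while FR4 and MR4 lay within the vehicle range at 104.5 and 78.3 CPM. The log2 fold change was -1.22 ± 0.24, a 2.33-fold fall (edgeR adjusted p = 0.0119), with -1.60 in batch 1 and -0.91 in batch 2. Kcnmb4, the BK beta subunit of neurons, went the other way without passing: 11.8 ± 1.31 and 14.5 ± 3.66 CPM, log2 0.32 ± 0.12 (edgeR adjusted p = 0.0714). It was named after its value was seen, as the largest positive difference in the set. Kcnt2, a sodium-activated channel, ran from 25.1 to 44.2 CPM on vehicle and from 17.4 to 30.9 CPM on rapamycin (log2 -0.43 ± 0.13, edgeR adjusted p = 0.0328). Its relative Kcnt1 averaged 119 ± 60.3 and 122 ± 46.5 CPM (log2 -0.03 ± 0.11), and its values split by batch, 72.5 to 104 CPM for batch 1 libraries and 122 to 217 CPM for those of batch 2. Among the small-conductance genes, Kcnn1 and Kcnn2 had log2 fold changes of 0.02 ± 0.07 and -0.12 ± 0.12.

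Among the two-pore-domain leak channels 1 of 10 fell, and 9 were below 0 (7 to 9 over the alternatives). Kcnk9, the TASK-3 channel, ran from 13.1 through a median of 15.8 to 31.9 CPM on vehicle and from 3.01 through 12.3 to 25.0 CPM on rapamycin. FR1, MR2 and FR2 were again lowest, at 3.01, 4.03 and 4.46 CPM, MR1 followed at 10.7 CPM, and the other 4 rapamycin libraries lay within the vehicle range. The log2 fold change was -0.95 ± 0.25 (edgeR adjusted p = 0.0222). Kcnk1, the highest member per length, averaged 94.4 ± 14.4 and 96.8 ± 20.9 CPM (log2 0.08 ± 0.08). Kcnk6 and Kcnk13, the latter the leak channel of microglia, had log2 fold changes of -0.06 ± 0.14 and -0.12 ± 0.14.

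Auxiliary subunits had values on both sides of 0. By edgeR 0 of 13 passed, and DESeq2 called 1 (Kcne2). In edgeR 2 had an unadjusted p under 0.05 (Kcne2 and Kcnmb4), against 30.4% of all genes. The median log2 fold change was 0.02, with 7 above 0 and 6 below. Kcnab2, the most abundant gene of the set, averaged 564 ± 55.5 CPM on vehicle and 569 ± 59.5 CPM on rapamycin, while Kcnab1 averaged 103 ± 22.5 and 90.7 ± 17.5 CPM. All 4 Kcnip genes, the calcium-binding partners of the Kcnd pores, lay above 0, from 0.07 to 0.17, but Kcnip1 and Kcnip4 were below it (-0.15 and -0.04) with exon length slope as a covariate, Kcnip3 (-0.03) without FR1, and Kcnip2 with the replicate block (-0.07) and without FR5 (-0.05). Neither tool called any of them. Whether pore and auxiliary subunits differed in their change was not tested.

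Other proteins that hold or place these channels came from a fixed list of 21 genes, of which 20 were tested. Of these, 4 fell without reaching 1.5-fold, against 6.86% of all genes that fell, and the other 16 did not pass. Ank3, the ankyrin of the axon initial segment, averaged 449.7 ± 101 and 321 ± 110 CPM (log2 -0.55 ± 0.13, edgeR adjusted p = 0.0162). Cntnap2, which anchors Kv1 channels beside the node, and Amigo1, a membrane protein that associates with Kv channels, fell by 0.35 and 0.22 on the log2 scale. Dlg4, the PSD-95 scaffold, had a log2 fold change of 0.04 ± 0.07.

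The falls were carried by some libraries more than others. The summed level of the 80 genes was 5956 ± 496 CPM on vehicle (SD, n = 8, 5224 to 6801) and 5087 ± 525 CPM on rapamycin (4222 to 5926). FR1 had the lowest sum, and FR4 and MR3 lay within the vehicle range at 5926 and 5707 CPM. Of the 17 genes that fell, 13 had their lowest value in FR1, FR2 or MR2 and 15 had their highest in MC4 or FC4. Of all 79 tested genes, 42 were lowest in FR1, FR2 or MR2, 14 were highest in MC4 and 9 in FC4. The 17 were chosen as lower on rapamycin in these same libraries, and no share over all genes is given here. FR1, FR2 and MR2 also had the lowest slope of expression on exon length (-0.12 to -0.13 log2 units per log2 unit of length, next lowest -0.03) and the highest mitochondrial share (6.88% to 6.99%, next highest 5.47%), and FC4 and MC4 had the highest slope (0.09 and 0.10). Marker sums also stood apart in these libraries. Oligodendrocyte markers summed to 9247 CPM in FR2 (next highest 6321), with medians of 4408.5 CPM on vehicle and 5699 CPM on rapamycin. Striatal markers were highest in FR1 at 323 CPM (next 263), and immediate early genes, which follow neuronal activity, in MR2 at 1871 CPM (next 1299). The smallest edgeR adjusted p in these lists was 0.0886 (Mobp). The part of these library properties in the falls was not tested apart from the alternatives with exon length given below.

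Exon length moved with the treatment over the whole transcriptome. In deciles of summed exon length, the median log2 fold change of all genes went from 0.27 in the shortest decile to -0.20 in the longest, and the share of genes that fell from 0.845% to 25.3%. The potassium channel genes were only slightly longer than the rest, with a median of 4093 bases against 3766 for all genes tested. Within their own deciles, 64 of 79 lay under the decile's median, by a median of -0.18. The shares of all genes that fell in each decile, applied to the potassium channel genes in it, add up to 5.98 genes, beside the 17 counted, and at 1.5-fold to 1.35 beside 11. These values describe the set and carry no test. In the 3 longest deciles 9 of 24 potassium channel genes fell, against 16.4% of all genes there. In the shortest decile 2 of only 3 fell, Kcnk9 and Kcnj13, and both calls depended on single libraries. The edgeR adjusted p of Kcnj13 was 0.177 without MC4, and that of Kcnk9 was 0.0543 without FR2. With each library's length slope as a covariate, Kcnk9 had a log2 fold change of -0.07. The 17 genes that fell had a median exon length of 5807 bases and a median genomic span of 45939 bases, and the other 62 had 3965 and 34229 bases. All genes that fell had medians of 7510.5 and 84035 bases.

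**Figure D3:**
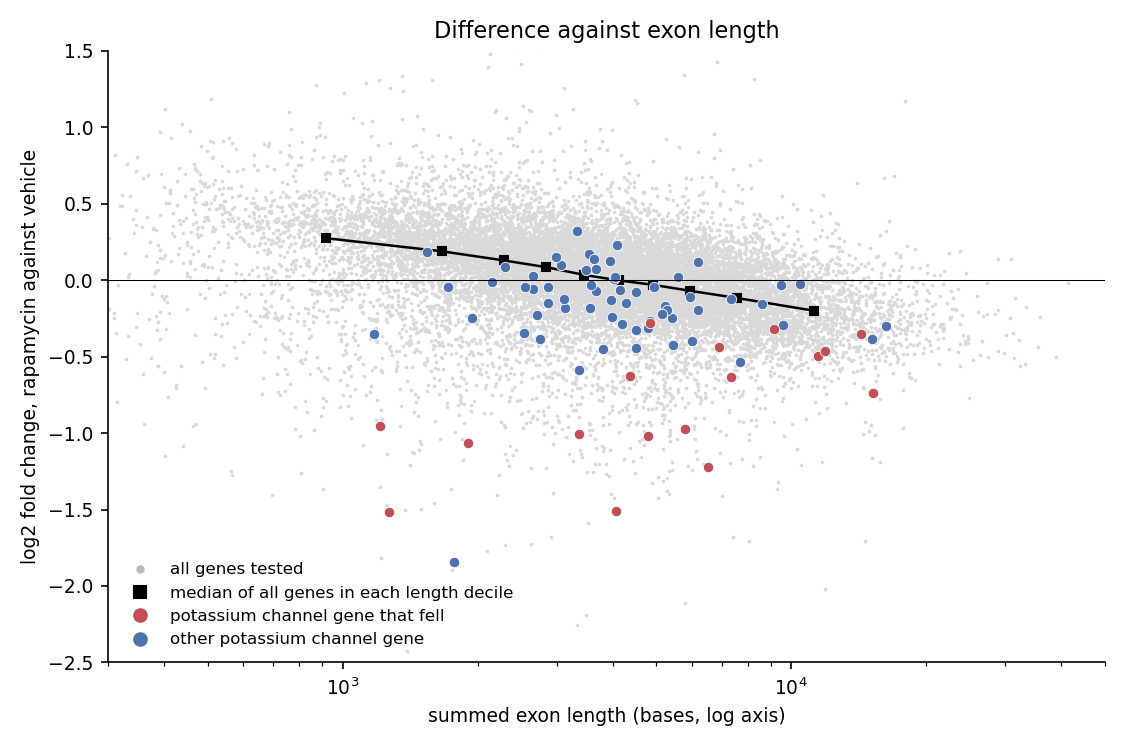
Log2 fold change on rapamycin against vehicle (y axis) against summed exon length in bases (x axis, log scale) for all genes tested (grey), with the median of each length decile (black squares), potassium channel genes that fell (red) and the others (blue). Genes beyond the axes are not drawn. The black line descends from 0.27 to -0.20, and 64 of the 79 coloured points lie under the median of their decile.

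Removing the smooth trend with exon length within each library left 7 genes at 1.5-fold or more and 8 at the adjusted p (Kcnj13, Kcna1, Kcnj11, Kcnma1, Kcnh5, Kcns2, Kcnk9 and Kcnj6; edgeR), against 2.53% of all genes falling in that fit. Of the original 17, 7 were among them. With each library's length slope as a covariate, 0 potassium channel genes and 0 genes of the whole table passed in edgeR, 5 and 965 had an unadjusted p under 0.05, and the set's median was -0.09. In that fit Kcnj6 had a log2 fold change of -0.61 and Kcnma1 -0.30, and Kcna3 was at 0.08. DESeq2 was not run with that covariate. Slopes were 0.00 to 0.10 on vehicle and -0.13 to 0.06 on rapamycin, so that covariate and treatment shared part of their variation.

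The counts depended on single libraries. Genes at 1.5-fold or more went from 11 to 5 without FR1 or FR2, to 6 without FC3, and to 7 without MC2, MC4, MR2 or MR4. Genes at the adjusted p went from 17 to 6 without FR1, 7 without MC4, 8 without FR2, 9 without FC3 and 10 without FC2, FR5, MC2, MR2 or MR4. They went up to 24 without FR4 or MR3. Over all genes, the share that fell at the adjusted p went from 6.86% to 2.4% without FR1, 3.9% without MC4 and 2.92% without FR2. It went up to 9.94% without FR4 and 8.77% without MR3, so the dependence was not particular to this set. Kcnmb4 rose past the threshold without MC4, MR1 or MR4. With MC4 and the library labelled MR4 both left out, 6 and 7 genes remained past the 2 criteria, and 3.51% of all genes fell at the adjusted p. For 6 genes the adjusted p stayed under 0.05 whichever library was left out: Kcnj6 (at most 0.0203), Kcnma1 (0.0356), Kcnh5 (0.0376), Kcna1 (0.0418), Kcns2 (0.0459) and Kcnh7 (0.0485). Kcnk9 lost its call without FR1 or FR2 (adjusted p up to 0.0543) and Kcnh1 without FC3, FR1, FR2, MC2 or MC4 (up to 0.0846). Kcna2, Kcnt2, Kcnj13, Kcnq3, Kcna3, Kcnc1 and Kcng3 each lost theirs in 9 to 13 of the 16 fits. Without the batch term only Kcnj6 passed (log2 -0.90, edgeR adjusted p = 0.0483), and 0.55% of all genes fell. In batch 1 alone 6 genes passed at 1.5-fold and 8 at the adjusted p, and 4.03% of all genes fell.

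**Figure D4:**
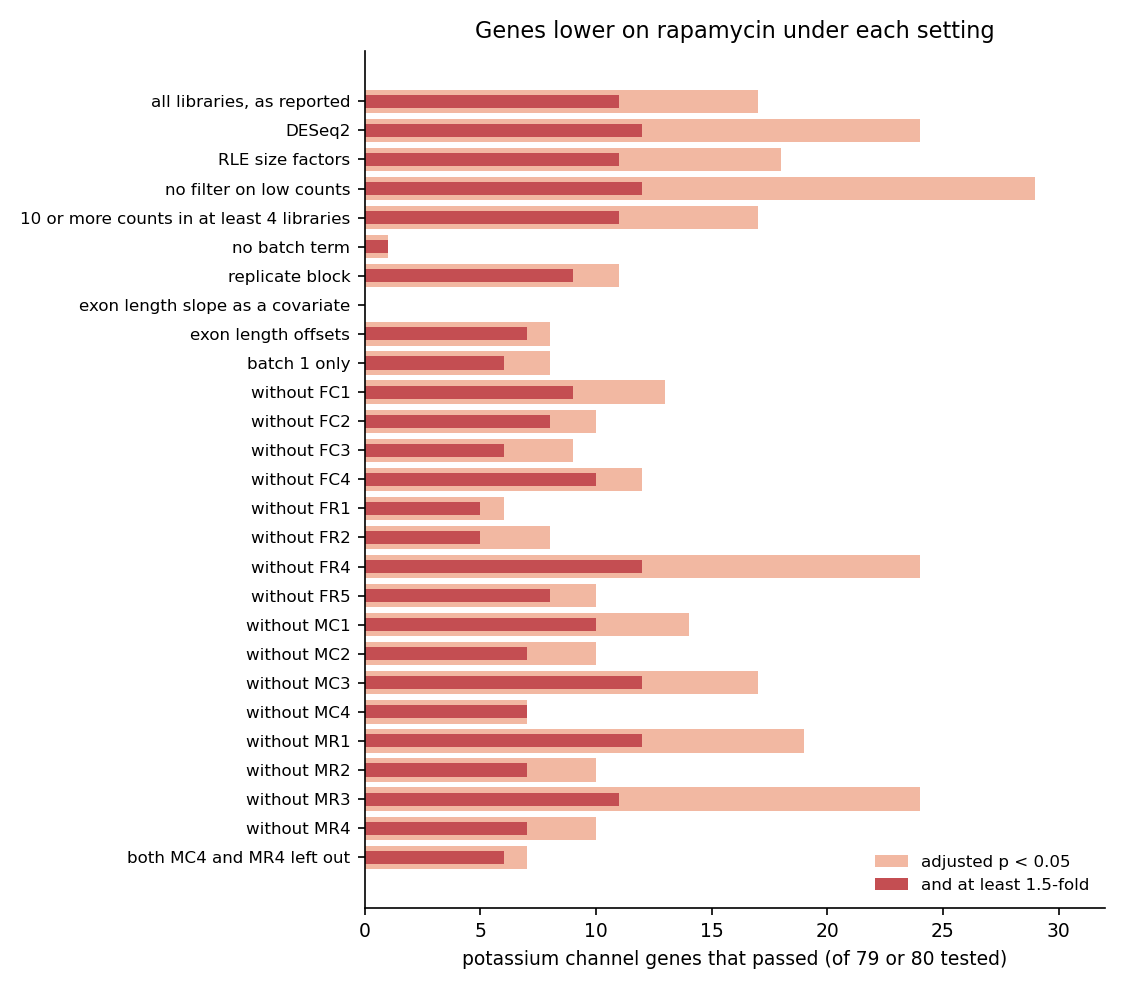
Number of potassium channel genes lower on rapamycin (x axis, from 0) under each setting (y axis), at adjusted p under 0.05 (pale bars) and also at least 1.5-fold (dark bars). The top bar is 17 and 11, the bar without a batch term is 1 and the bar with the length slope as a covariate is 0. In these settings 6.86%, 0.55% and 0% of all genes fell at the adjusted p.

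Within each sex most of the genes also lay below 0, 57 of 79 in females and 62 in males, and fewer passed. In females 0 of 79 genes passed at 1.5-fold in edgeR, against 0.0121% of all genes. An unadjusted p under 0.05 was reached by 30, against 23.1% of all genes, and DESeq2 called 9. In males 0 passed in edgeR, against 0% of all genes. An unadjusted p under 0.05 was reached by 13, against 12% of all genes, and DESeq2 called 1. The set's median was -0.24 on the log2 scale for females and -0.22 for males. Below 0 in each were 48 genes, with all 17 that fell in both sexes together. Those 17 were chosen on the same libraries, so their sign in each sex is no separate support. The male libraries include the one labelled MR4, which went against its sex label. Kcnj6 had the smallest adjusted p of the set in both, with -1.001 ± 0.19 (0.0572) in females and -0.95 ± 0.18 (0.240 in males, edgeR). The female count went to 15 without FR4, 4 without MR2, 3 without FC4 and 2 without MR3 or MR4, whereas the male count was 0 whichever library was left out. No share over all genes is given here for the DESeq2 calls or for the fits with 1 library left out. Those counts therefore cannot be read as particular to this set.

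**Figure D5:**
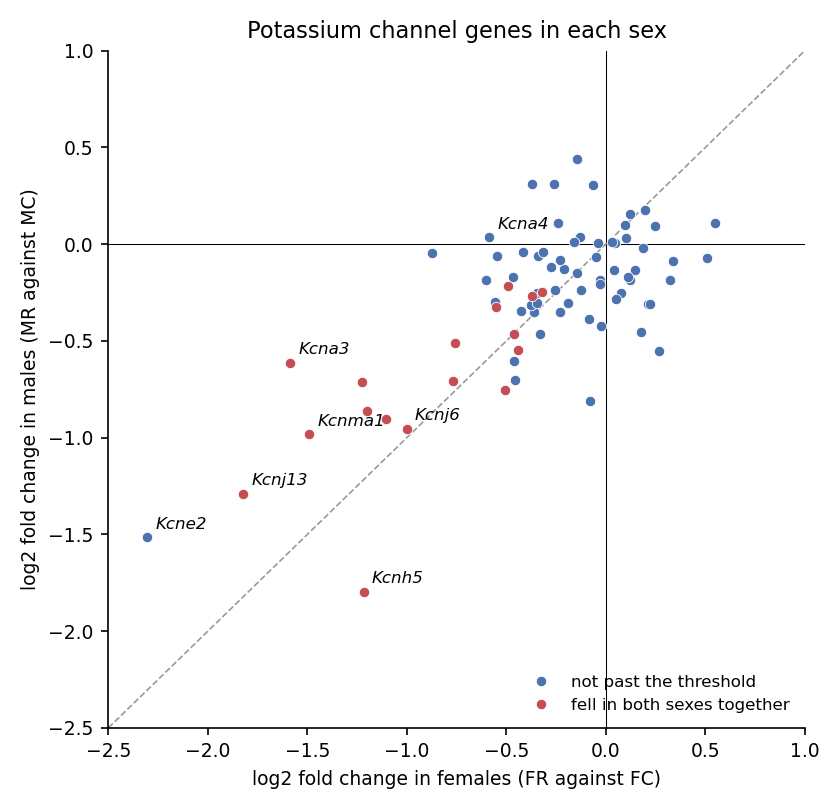
Log2 fold change on rapamycin in females (x axis) against that in males (y axis) for the 79 tested genes. Red points fell in both sexes together, the dashed line marks equal change, and all 17 red points lie below 0 on both axes. The red points were chosen on the same libraries.

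The difference between the sexes in the change was tested by the interaction term. By edgeR 0 of 79 genes passed, against 0% of all genes, and DESeq2 gave 0. An unadjusted p under 0.05 was reached by 3, against 2.17% of all genes. The 3 were Kcna4, Kcnip1 and Kcnd2. Kcna4 ran at 29.6, 22.9, 27.8 and 19.8 CPM in FC1 to FC4, at 16.4, 13.7, 16.3 and 18.6 CPM in FR1, FR2, FR4 and FR5, at 20.3, 19.1, 25.1 and 15.5 CPM in MC1 to MC4, and at 19.9, 17.1, 22.9 and 21.7 CPM in MR1 to MR4. All 4 FR libraries were thus under all 4 FC libraries, and the male groups overlapped. Kcna4 was named by its interaction p in these same libraries, so that separation is no separate support. The share of all genes separated in this way is not given here. The log2 fold changes were -0.59 ± 0.16 and 0.04 ± 0.16, with an adjusted interaction p of 0.999 (edgeR). Kcnip1 had 0.34 in females and -0.09 in males, and Kcnd2 -0.41 and -0.04, at the same adjusted interaction p. The MR group held the library labelled MR4, which went against its sex label. Without it the unadjusted interaction p went from 0.0135 to 0.0517 for Kcna4, whose male log2 fold change became -0.04, from 0.0404 to 0.156 for Kcnd2, and from 0.0213 to 0.0214 for Kcnip1, with adjusted p of 0.997 (edgeR) for each.

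On vehicle, female and male libraries were compared as well. By edgeR 0 of 79 genes passed, against 0.0121% of all genes, and DESeq2 gave 0. An unadjusted p under 0.05 was reached by 4, against 3.55% of all genes. The 3 with the smallest p were Kcnj11, at a log2 difference of female against male of -0.41, Kcnn1 at -0.22, and Kcnd1, which is X-linked, at 0.26. Their adjusted p was 0.999 each (edgeR), so no sex difference in potassium channel expression was detectable at this depth and number of libraries.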

How the data were processed

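Cortical RNA libraries were sequenced as read pairs. The authors removed low-quality and leading bases with Trimmomatic 0.39, checked reads with FastQC 0.11.9, aligned them to GRCm38 (mm10) with HISAT2 2.2.1 and deposited whole-number counts per gene from featureCounts 2.0.3, over exons, without strand. Reads of a gene and its opposite-strand partner (Kcnd3, Kcnmb4, Kcnab3, Kcnq1) therefore cannot be told apart.

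From the deposited counts, edgeR 4.0.16 (R 4.3.3) was run with TMM factors, filterByExpr (minimum count 10, 16553 genes kept), glmQLFit and glmQLFTest. The model for both sexes had sex, batch and treatment, and comparisons within sexes used 4 groups and batch. SE is the absolute log2 fold change over the square root of the F statistic. Genes were called at an adjusted p under 0.05, with a fold change of at least 1.5 where stated. RPKM is CPM per kilobase of summed exons. The fits were tested on simulated data. Alternatives were DESeq2 1.42.0, RLE factors, other filters and terms, length offsets (spline with 4 degrees of freedom) and each library left out. Named genes were those called, the smallest p and highest RPKM of each family, the 3 smallest p of the interaction and of the vehicle sexes, and genes known from cells other than neurons. The members, lists and rules were chosen with earlier results of these data known. CPM values rest on totals of 16393501 to 20593089, and intervals are over libraries. Results for a few genes are not reported here.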

Additional observations from a re-analysis of the deposited data

Results flagged for a closer look

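In 10 of 180 groups of 4 libraries, taken over the 45 named genes that were tested, 1 library lay far from the other 3 (Dixon's test at the 95% level); chance alone gives about 1 in 20 groups, or 9. Kcnj6 was at 33.5 CPM in FC4 (others 19.5 to 20.8) and at 7.89 CPM in MR2 (others 11.9 to 12.6). Kcnma1 was at 160.2 CPM in MC4 (others 91.1 to 95.4), and Kcnn1 at 20.8 CPM there (others 22.8 to 23.1). In FC4, Kcnt1 was at 216 CPM (others 80.4 to 88.2) and Kcnab1 at 69.2 CPM (others 105 to 114). Kcnip3 was at 291 CPM in FR1 (others 120.0 to 123), Kcnab2 at 615 CPM in FC2 (others 503 to 511), Kcnd2 at 106 CPM in MC1 (others 94.9 to 96.2) and Kcna2 at 301 CPM in MR3 (others 243 to 251). FC4 and MC4 belong to batch 2, whose other libraries are in other groups.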

How the results depend on the processing

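In both sexes together, genes at 1.5-fold and at the adjusted p numbered 11 and 17. They numbered 12 and 24 by DESeq2, 11 and 18 with RLE factors, 12 and 29 with no filter, 1 and 1 with no batch term, 6 and 8 in batch 1 only, 7 and 8 with exon length offsets, 0 and 0 with the length slope as a covariate, 6 and 7 with MC4 and the library labelled MR4 both left out (an alternative chosen after seeing the data, which also gave 1 rise, Kcnmb4), and 5 to 12 and 6 to 24 with 1 library left out, where rises numbered 0 to 1. The share of all genes that fell at the adjusted p was 6.86% in the main fit, 9.82% by DESeq2, 7.2% with RLE factors and 4.67% with no filter. It was 0.55% with no batch term, 4.03% in batch 1 only, 2.53% with exon length offsets and 0% with the length slope. With MC4 and the library labelled MR4 both left out it was 3.51%, and with 1 library left out 2.4% to 9.94%. The cause was not tested. Female calls, 0 by edgeR, were 9 by DESeq2, 14 with no filter, 9 in batch 1 only and 0 to 15 with 1 library left out. Male calls were 1 by DESeq2 and 10 with no filter, interaction calls 2 with no filter, and calls between the sexes on vehicle 1 with no filter. For these calls and the female ones no share over all genes is given here, so they cannot be read as particular to this set. With no filter 30248 genes entered the fit. Kcna3 reversed to 0.0824 (adjusted p = 0.988) with the length slope as a covariate. Over all alternatives of the 45 named genes, 997 values kept their side of the threshold, 146 lost the call, 26 gained one and 1 reversed. Of the 997, 728 were values of the 29 genes that were not past the threshold. Of the 416 values of the 16 genes past it, 269 kept the call. Reversals are counted only for genes past the threshold. Of the 754 values of the 29 other genes, 41 changed sign, in 17 genes. With the replicate block in place of batch, 9 and 11 genes passed, and 10 of the 17 were shared. The replicate numbers are not stated to pair libraries: same-numbered libraries had correlations of their deviations of -0.157 to 0.675 (18 of 21 pairs over 0.1), and 12 of 16 correlated best with their own number. With batch removed, these were -0.433 to 0.366 (7 of 21), and 4 of 16.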
